A study of Mus musculus with 8 samples.

Results

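The genes of antigen presentation by major histocompatibility complex (MHC) class I and class II molecules, with a set of dendritic cell and costimulatory genes, were followed in 8 mouse mammary tumour samples. The set has 33 members of the 21368 genes that could be named on the arrays, with 16 class I, 10 class II and 7 dendritic cell and costimulatory genes. Members were taken by name, as the probes whose RefSeq accession belongs to one of these genes. The set was chosen with earlier results of these data known. All 33 had a probe, and 30 passed the filter on dim probes and were tested.

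FGFR1 KO 1 to 4 are tumours of K19-tva/fgfr1loxP/loxP mice, and WT 1 to 4 are tumours of control K19-tva mice, with 4 arrays in each group and the strain FVB in both. Both groups carry K19-tva, named for the keratin 19 promoter and the avian retroviral receptor TVA, and the floxed Fgfr1 allele came from ICR mice and was backcrossed to FVB. The labels used here give no age, no Cre and no way of tumour induction, and they do not tie tumours to animals, so the p-values cover the spread of these 8 samples, which may in part be technical. Each array was hybridised with tumour RNA in red and a universal human reference RNA in green, per the labelling protocol, although the label field names only cy3. Every value below is a log2 ratio of tumour over reference for 1 probe, so levels of different genes cannot be set against each other, and every difference is FGFR1 KO minus WT on the log2 scale.

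Class I molecules are made of a heavy chain and B2m, and they show peptides that the immunoproteasome cuts, the Tap transporter moves into the endoplasmic reticulum and a loading complex fits into the groove. Class II molecules sit mainly on dendritic cells, macrophages and B cells and show peptides of ingested proteins, with the invariant chain Cd74 and the H2-DM proteins guiding the loading. Nlrc5 and Ciita are the transactivators of class I and class II genes, and both act at the SXY module of the promoter, whose Y box binds the factor NF-Y.

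The promoters of B2m, of the classical heavy chains H2-K1 and H2-D1 and of the class II chains H2-Aa and H2-Eb1 are shown because the results turn on these genes and the transactivators act there. They are RefSeq windows of GRCm38.p6, 250 bases before to 50 bases after the gene's start, written 5′ to 3′ in the direction of the gene. Capitals mark matches to 3 motifs searched on both strands. CTGATTGG stands for the letters of a Y box and reads CCAATCAG on the other strand. GGGATTCCC is a kappa B site of enhancer A, and GAAANNGAA the core of an interferon-stimulated response element.
B2m, chr2:122147437-122147736, plus strand: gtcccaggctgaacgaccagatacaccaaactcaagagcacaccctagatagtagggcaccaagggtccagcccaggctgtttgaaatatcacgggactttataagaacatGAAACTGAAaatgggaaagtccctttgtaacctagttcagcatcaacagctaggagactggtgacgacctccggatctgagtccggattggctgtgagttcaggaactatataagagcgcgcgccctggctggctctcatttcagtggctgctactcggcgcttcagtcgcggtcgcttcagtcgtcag
H2-K1, chr17:34000284-34000583, minus strand: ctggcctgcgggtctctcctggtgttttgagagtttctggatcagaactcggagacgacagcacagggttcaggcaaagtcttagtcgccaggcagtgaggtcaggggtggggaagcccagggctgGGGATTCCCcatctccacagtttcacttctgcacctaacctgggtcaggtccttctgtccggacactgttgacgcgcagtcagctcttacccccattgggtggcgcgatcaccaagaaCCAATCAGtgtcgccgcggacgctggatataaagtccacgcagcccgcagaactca
H2-D1, chr17:35262844-35263143, plus strand: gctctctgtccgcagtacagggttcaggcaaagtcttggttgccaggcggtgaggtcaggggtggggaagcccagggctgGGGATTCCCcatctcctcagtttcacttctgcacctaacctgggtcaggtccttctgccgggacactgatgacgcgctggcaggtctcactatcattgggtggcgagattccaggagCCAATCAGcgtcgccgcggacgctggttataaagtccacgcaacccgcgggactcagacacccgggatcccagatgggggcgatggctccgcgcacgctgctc
H2-Aa, chr17:34287774-34288073, minus strand: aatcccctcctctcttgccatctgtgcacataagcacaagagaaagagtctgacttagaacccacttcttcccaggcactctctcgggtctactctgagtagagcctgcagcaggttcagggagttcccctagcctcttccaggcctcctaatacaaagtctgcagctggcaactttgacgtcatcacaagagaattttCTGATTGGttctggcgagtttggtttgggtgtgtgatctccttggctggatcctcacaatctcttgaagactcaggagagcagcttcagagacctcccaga
H2-Eb1, chr17:34305617-34305916, plus strand: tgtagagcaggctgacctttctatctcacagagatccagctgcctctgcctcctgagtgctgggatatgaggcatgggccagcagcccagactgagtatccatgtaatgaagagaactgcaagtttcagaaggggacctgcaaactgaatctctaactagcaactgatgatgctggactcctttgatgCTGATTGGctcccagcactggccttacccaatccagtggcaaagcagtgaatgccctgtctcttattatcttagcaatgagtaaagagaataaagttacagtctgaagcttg

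The Y box letters began 6 bases before the start in H2-K1 and 53 bases before it in H2-D1, both on the reverse strand, and 51 and 62 bases before it in H2-Aa and H2-Eb1. The kappa B letters began 124 bases before the start in H2-K1 and 170 bases before it in H2-D1, and the response element began 139 bases before it in B2m. No match overlapped a match to another motif. Of the 33 members, 26 had a window in the RefSeq table. The Y box letters were in 9 of the 26 genes, the kappa B letters in 2 and the response element in 4. Of all 32851 windows, 4.1%, 0.353% and 8.56% held them. The member counts are of genes with a match in any of their windows. They are thus not on the same scale as shares of single windows. A match describes the letters of the reference strain and says nothing of binding in these tumours. The SXY module itself was not located, so a match, above all on the reverse strand, need not be its Y box. A window without a match to the Y box letters, as in B2m, may hold a Y box of other letters.

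The share of spots well above background in red was 68.9% to 83.9% for FGFR1 KO and 43.9% to 69.2% for WT, and with 4 arrays a group the precision is limited. All arrays lie on 1 slide, with the genotypes in different rows, so genotype and slide row cannot be told apart. A bright area of 240 rows from row 97 and 82 columns from column 83 holds 31.3% of spots. In it the median red signal of 96 negative controls was 0 to 6 intensity units above local background in FGFR1 KO. There it was 35.5 on WT 1, 41 on WT 3, 6.2 on WT 2 and 6 on WT 4, against 1 to 7 at 212 controls outside the area over all 8 arrays. WT 2 differed most from the other arrays, correlating with them at 0.379 on average, against 0.598 to 0.713 for the rest. Luminal epithelial markers (Epcam, Krt8, Krt18, Krt19, Cdh1) had medians of 1.47 to 2.41 on the FGFR1 KO arrays and of 1.57, 2.19 and 2.56 on WT 1, WT 3 and WT 4, but of -2.74 on WT 2. The probe chosen for Fgfr1 differed by 0.00 between the groups, but no source used here places it relative to the floxed part, so it checks nothing.

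Which antigen presentation genes differed between the genotypes was asked first for all members together. Each member was read by its representative probe, the tested probe with the highest mean red level. None of the 30 tested members passed limma's test with Benjamini-Hochberg adjustment over all 39782 probes, of which 0.0101% passed at an adjusted and 8.48% at an unadjusted p of 0.05. The smallest adjusted p of limma was 0.539 among these probes and 0.302 among the members' other tested probes, for Nlrc5. Of the 30, 20 differed by less than 0 and 10 by more than 0, with a median of -0.43, while 50.3% of all 16757 tested genes were below 0 with a median of 0.00. At an unadjusted p of 0.05, 4 members were lower in FGFR1 KO tumours, B2m, H2-K1, Cd1d1 and Cd209a, and 0 were higher, against 4.78% and 3.1% of all tested genes. Of all genes, 2.5% read lower on every FGFR1 KO array than on any WT array, and B2m was the 1 member whose representative probe did so, while 0 members read higher on every FGFR1 KO array, against 1.85% of genes. A further tested probe of H2-K1 and of Nlrc5 also read lower in this way, but these shares count 1 probe per gene. In RNA of whole tumours, fewer cells of a type and less RNA per cell cannot be told apart. The order of the arrays was shared by many members, as WT 1 was the highest array in 18 of the 30, against 11.8% of genes, and FGFR1 KO 4 the lowest in 12, against 13.5%. WT 2 was the lowest array in 11 members, against 22.4% of genes. Without WT 1, or without FGFR1 KO 4, 0 members were lower at the unadjusted threshold, and without WT 4 there were 7. The shares of all tested genes with an array left out are not given here, so these counts show only how much the number moved.

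**Figure D1:**
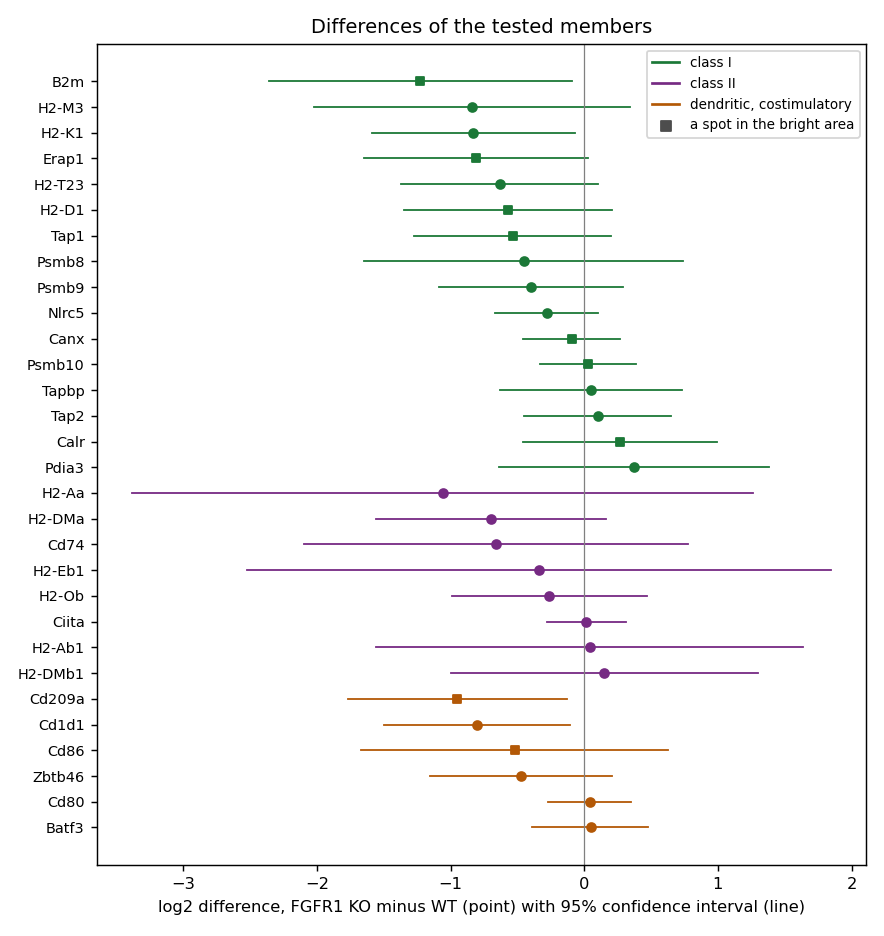
Log2 difference (FGFR1 KO minus WT) of the 30 tested members, each by its representative probe, on the horizontal axis, as a point with its 95% confidence interval from limma as a line, grouped by class and ordered by size within it. Squares mark members with a spot in the bright area, where red negative controls were raised most on WT 1 and WT 3. Of the 30 intervals, those of B2m, H2-K1, Cd209a and Cd1d1 lie wholly below 0, before any adjustment for the number of probes.

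Class I genes had 11 of 16 members below 0, with a median difference of -0.43 and a range from -1.23 to 0.37, and 0 of them passed the adjusted test. The median of the class on each array was 0.11, 0.37, 0.41 and -0.20 for FGFR1 KO 1 to 4, against 1.04, -0.05, 0.44 and 0.44 for WT 1 to 4. The groups overlapped, with WT 1 above all other arrays and FGFR1 KO 4 below them. The heavy chains, B2m and Erap1 lay at the low end, and the chaperones of the endoplasmic reticulum near or above 0.

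B2m encodes beta-2 microglobulin, the light chain shared by class I molecules. It read -0.14, -0.42, -0.36 and -2.11 in FGFR1 KO 1 to 4, against 1.55, -0.07, 0.39 and 0.00 in WT 1 to 4. All 4 FGFR1 KO tumours were below all 4 WT tumours, although FGFR1 KO 1 and WT 2 were close together, and FGFR1 KO 4 and WT 1 were far from the rest of their groups. B2m averaged -0.76 ± 0.91 in FGFR1 KO and 0.47 ± 0.75 in WT tumours (SD, n = 4 each). The difference was -1.23 ± 0.50 (SE), with a 95% confidence interval from -2.36 to -0.09, a ratio of FGFR1 KO to WT of 0.428. A two-sided exact permutation test gave p = 0.0286, the lowest value possible with 4 arrays a group, and limma's adjusted p was 0.559. Without FGFR1 KO 4 the difference was -0.77, and without WT 1 it was -0.86. In the separate channels, as log2 intensities after A-quantile normalization, the red level was 11.25 in FGFR1 KO and 12.22 in WT tumours, and the green reference level was 12.01 beside FGFR1 KO and 11.75 beside WT.

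The heavy chain gene H2-K1 encodes the classical class I molecule K and was measured by a pair of probes. The representative probe, A_55_P2049647, read 0.67, 0.82, 1.13 and 0.41 in FGFR1 KO 1 to 4, against 2.54, 1.34, 1.62 and 0.86 in WT 1 to 4. Only WT 4 lay within the range of the FGFR1 KO tumours. The means were 0.76 ± 0.30 in FGFR1 KO and 1.59 ± 0.70 in WT (SD, n = 4 each), and the difference was -0.83 ± 0.33 (SE; -0.52 without WT 1), with limma's adjusted p at 0.558. The probe A_51_P198434, printed at 10 spots, read 0.82, 1.32, 1.46 and 0.29 in FGFR1 KO 1 to 4, against 2.65, 1.76, 1.69 and 1.61 in WT 1 to 4. There the groups did not overlap, and the difference was -0.95 ± 0.32 (SE; limma's adjusted p = 0.474; exact two-sided permutation test, p = 0.0286). H2 genes are polymorphic and resemble each other, the probes were designed on mm9, and their match to the H2 alleles of these mice or to H2 relatives was not tested.

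H2-D1, the classical heavy chain D, read 1.61, 1.74, 1.76 and 1.35 in FGFR1 KO 1 to 4, against 3.32, 1.81, 2.01 and 1.61 in WT 1 to 4. The 4 FGFR1 KO tumours were close to each other and to WT 2 and WT 4, and WT 1 stood above all others. The difference of -0.57 ± 0.35 (SE) did not pass (limma, adjusted p = 0.676), and it was -0.19 without WT 1. H2-T23, the nonclassical heavy chain Qa-1, read 0.44, 0.64, 0.89 and 0.41 in FGFR1 KO 1 to 4, against 2.16, 0.84, 1.37 and 0.55 in WT 1 to 4. WT 1 was again the highest array, and the difference was -0.63 ± 0.32 (SE; limma's adjusted p = 0.632), or -0.32 without WT 1. H2-M3, a nonclassical molecule that presents formylated bacterial peptides, averaged -1.56 ± 0.67 in FGFR1 KO and -0.72 ± 1.04 in WT tumours (SD, n = 4 each), with values from -2.51 to -0.94 in FGFR1 KO and from -1.48 to 0.76 in WT. Its probe was well above background on 3 FGFR1 KO and 2 WT arrays, and the difference of -0.84 ± 0.52 (SE) did not pass (limma, adjusted p = 0.681), and it was -0.35 without WT 1 and -0.52 without FGFR1 KO 4.

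**Figure D2:**
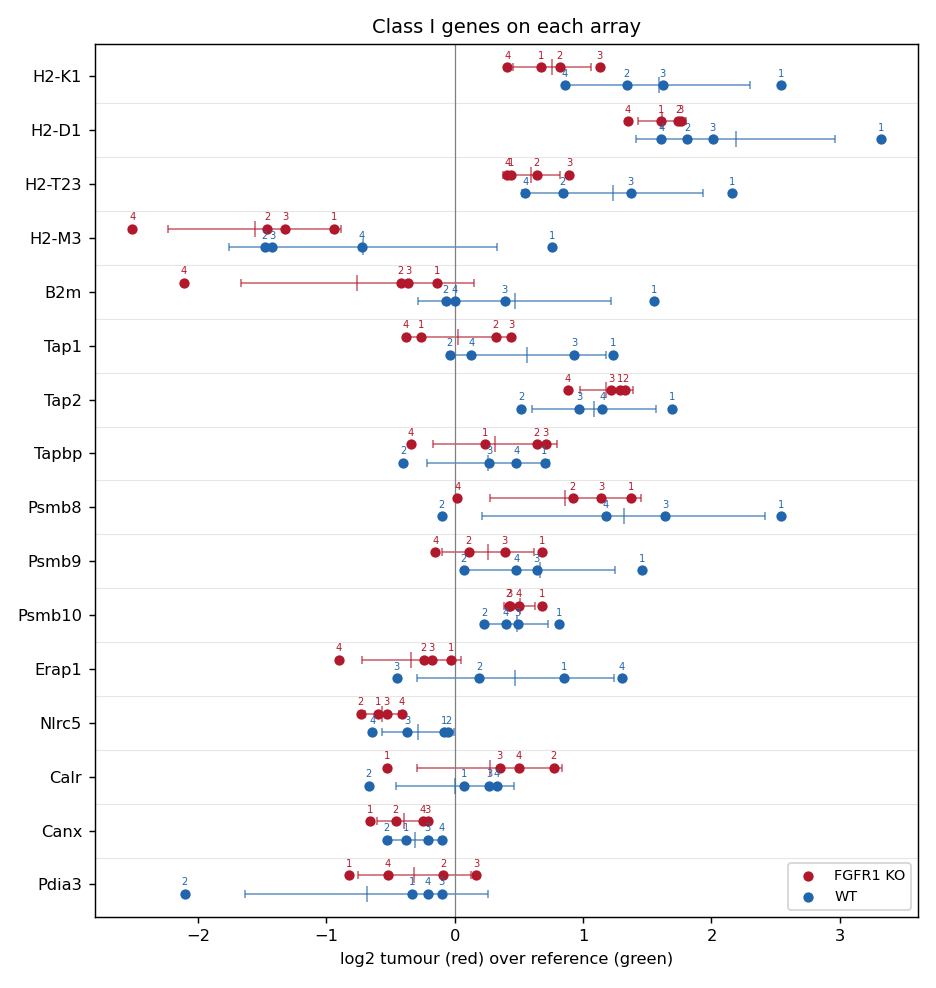
Log2 ratio of tumour (red) over reference (green) for the representative probe of each of the 16 class I genes, with 1 point per array numbered by replicate, FGFR1 KO above WT in each row, and bars for the mean and SD of each group. B2m is the 1 gene in which the 4 FGFR1 KO points lie below all WT points, with FGFR1 KO 4 at -2.11 and WT 1 at 1.55.

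The genes of the peptide transporter and the loading complex had differences of both signs. Tap1, a subunit of the transporter, read -0.26, 0.32, 0.44 and -0.38 in FGFR1 KO 1 to 4, against 1.23, -0.04, 0.93 and 0.13 in WT 1 to 4. The groups overlapped, with WT 1 and WT 3 above all FGFR1 KO tumours, and the difference was -0.53 ± 0.33 (SE; limma's adjusted p = 0.676), or -0.31 without WT 1. Tap2, the partner subunit, averaged 1.18 ± 0.21 in FGFR1 KO and 1.08 ± 0.48 in WT tumours, with values from 0.88 to 1.33 in FGFR1 KO and from 0.52 to 1.69 in WT, and differed by 0.10 ± 0.24 (SE). The Tapbp gene, for the tapasin that bridges transporter and heavy chain, averaged 0.31 ± 0.48 in FGFR1 KO and 0.27 ± 0.47 in WT, ranged from -0.34 to 0.71 in FGFR1 KO and from -0.40 to 0.70 in WT, and differed by 0.05 ± 0.30 (SE). The 95% confidence intervals of Tap2, from -0.45 to 0.65, and of Tapbp, from -0.63 to 0.73, hold differences in both directions.

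Among the immunoproteasome subunits, Psmb8 read 1.37, 0.92, 1.14 and 0.02 in FGFR1 KO 1 to 4, against 2.54, -0.10, 1.64 and 1.18 in WT 1 to 4. FGFR1 KO 4 and WT 2 were low and the other 6 arrays higher, and the difference was -0.45 ± 0.53 (SE; limma's adjusted p = 0.815). Leaving out WT 1 gave -0.05, leaving out FGFR1 KO 4 gave -0.17 and leaving out WT 2 gave -0.93. Psmb9 averaged 0.26 ± 0.36 in FGFR1 KO and 0.66 ± 0.58 in WT, with -0.15 to 0.68 in FGFR1 KO and 0.07 to 1.46 in WT, and differed by -0.40 ± 0.30 (SE; -0.14 without WT 1). Psmb10 averaged 0.51 ± 0.12 in FGFR1 KO and 0.48 ± 0.24 in WT, with 0.42 to 0.68 in FGFR1 KO and 0.23 to 0.81 in WT, and differed by 0.03 ± 0.16 (SE). Psmb10 was thus nearly level on all 8 arrays, while Psmb8 spread over more than 2 log2 units. Erap1, the aminopeptidase that trims peptides in the endoplasmic reticulum, read -0.03, -0.24, -0.18 and -0.90 in FGFR1 KO 1 to 4, against 0.85, 0.19, -0.45 and 1.30 in WT 1 to 4. WT 3 lay among the FGFR1 KO tumours, the probe was well above background on 3 FGFR1 KO arrays and 1 WT array, and the difference was -0.81 ± 0.37 (SE; limma's adjusted p = 0.601), or -0.53 without WT 4.

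The chaperones that fold class I molecules serve many other proteins too. Calr, for calreticulin, averaged 0.27 ± 0.56 in FGFR1 KO and 0.00 ± 0.46 in WT (SD, n = 4 each), ranged from -0.53 to 0.77 in FGFR1 KO and from -0.67 to 0.33 in WT, and differed by 0.27 ± 0.32 (SE). Canx, for calnexin, averaged -0.40 ± 0.21 in FGFR1 KO and -0.31 ± 0.19 in WT, with -0.66 to -0.21 in FGFR1 KO and -0.53 to -0.10 in WT, and differed by -0.09 ± 0.16 (SE). Pdia3, a disulfide isomerase of the loading complex, averaged -0.32 ± 0.44 in FGFR1 KO and -0.69 ± 0.95 in WT, with -0.82 to 0.17 in FGFR1 KO and -2.10 to -0.10 in WT, and differed by 0.37 ± 0.45 (SE), with its lowest value on WT 2. None of these 3 passed the test.

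Nlrc5, the class I transactivator, had a pair of probes that disagreed in size. The representative probe, A_66_P113043, read -0.60, -0.73, -0.53 and -0.41 in FGFR1 KO 1 to 4, against -0.08, -0.05, -0.37 and -0.64 in WT 1 to 4. WT 4 lay among the FGFR1 KO tumours, and the difference was -0.28 ± 0.17 (SE; limma's adjusted p = 0.672). The other probe, A_55_P2016034, whose spot lies in the bright area, read -0.05, -0.71, -0.54 and -1.73 in FGFR1 KO 1 to 4, against 2.37, 0.41, 1.19 and 0.95 in WT 1 to 4. There the groups did not overlap, and the difference was -1.99 ± 0.46 (SE), with limma's adjusted p at 0.302. Across the 8 arrays, which share the reference and the slide, the representative Nlrc5 probe correlated with H2-K1 at a Pearson r of 0.69 (exact permutation p = 0.0516) and a Spearman rho of 0.62 (exact permutation p = 0.115). Without WT 1 and WT 2, the arrays farthest from the median of Nlrc5, r was 0.33. Leaving out the extreme Nlrc5 values narrows their range, which can by itself lower r, so what the relation rests on was not tested. Of 22 relations of Nlrc5 and Ciita with the other members of their classes, 0 passed adjustment (smallest adjusted exact p = 0.559), and 4 arrays per genotype are too few for values within a genotype.

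Class II genes had 5 of 8 tested members below 0, with a median difference of -0.30 and a range from -1.06 to 0.15, and 0 passed at the adjusted or the unadjusted threshold. The class median by array was 1.65, 0.39, 0.66 and 0.15 for FGFR1 KO 1 to 4, against 2.56, 0.24, 0.74 and 0.93 for WT 1 to 4. WT 1 was the highest array and FGFR1 KO 1 came next, so the groups overlapped widely. Without WT 1 the median difference was 0.03, and without WT 2 it was -0.67.

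H2-Aa, the alpha chain of the class II molecule A, read 2.82, 1.49, 3.62 and 0.60 in FGFR1 KO 1 to 4, against 5.69, 1.84, 4.05 and 1.19 in WT 1 to 4. The groups overlapped, with WT 1 at the top, and the difference of -1.06 ± 1.02 (SE) had a 95% confidence interval from -3.38 to 1.26. With WT 1 left out it was -0.23, with FGFR1 KO 4 left out -0.55 and with WT 4 left out -1.73. The mean red level of H2-Aa was 10.76 in FGFR1 KO and 11.27 in WT tumours. Its green reference level was 8.63 beside FGFR1 KO and 8.08 beside WT, so part of the difference lay in the reference channel. With red alone the difference was -0.63. The beta chain H2-Ab1, measured with A_55_P1962747, read 5.53, 5.44, 5.61 and 3.55 in FGFR1 KO 1 to 4, against 6.59, 3.25, 5.24 and 4.91 in WT 1 to 4. FGFR1 KO 4 and WT 2 were low and the other 6 arrays lay between 4.91 and 6.59, and the difference was 0.04 ± 0.71 (SE; limma's adjusted p = 0.99). The other H2-Ab1 probe, in the bright area, differed by -0.18 ± 0.78 (SE).

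H2-Eb1, the beta chain of the class II molecule E, read 3.30, -0.04, 0.26 and -0.09 in FGFR1 KO 1 to 4, against 1.88, -0.18, -0.13 and 3.22 in WT 1 to 4. It was high in FGFR1 KO 1, WT 1 and WT 4 and near 0 in the other 5 tumours, a split that crosses the genotypes and that H2-Aa and H2-Ab1 did not show. The difference was -0.34 ± 0.96 (SE; limma's adjusted p = 0.931).

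Cd74, the invariant chain, read 0.70, 0.63, 0.98 and -0.42 in FGFR1 KO 1 to 4, against 3.13, -0.08, 0.78 and 0.68 in WT 1 to 4. Without WT 1, which lay far above the other 7 arrays, the difference was 0.01 in place of -0.66 ± 0.63 (SE). H2-DMa, a chain of the H2-DM molecule that exchanges peptides on class II, read 0.61, -0.24, 0.34 and -0.13 in FGFR1 KO 1 to 4, against 2.00, 0.36, 0.70 and 0.32 in WT 1 to 4. Its difference of -0.70 ± 0.38 (SE) had the smallest adjusted p of the class (limma, 0.648), and it was -0.32 without WT 1. H2-DMb1, the partner chain, averaged 2.41 ± 0.66 in FGFR1 KO and 2.26 ± 1.01 in WT (SD, n = 4 each), with 1.71 to 3.24 in FGFR1 KO and 0.90 to 3.33 in WT, and differed by 0.15 ± 0.51 (SE). The 2 chains of this heterodimer thus had differences of opposite sign, and neither passed the test.

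The H2-O molecule restrains H2-DM, mainly in B cells. H2-Ob averaged 0.21 ± 0.08 in FGFR1 KO and 0.47 ± 0.72 in WT, with 0.15 to 0.32 in FGFR1 KO and -0.07 to 1.53 in WT, WT 1 at the top, and differed by -0.26 ± 0.32 (SE). A further H2-Ob probe, A_55_P2082929, was not well above background on any FGFR1 KO array and was so on 1 of 4 WT arrays. It read 0.47, 0.03, 0.76 and 0.21 in FGFR1 KO 1 to 4, against 4.32, 0.62, 0.65 and 0.43 in WT 1 to 4. WT 1 alone stood out, and the WT mean red signal, 1.79-fold above the bound set for FGFR1 KO, rests on that array. H2-Oa and H2-DMb2 were not tested. H2-Oa, well above background on 1 FGFR1 KO and 1 WT array, ranged from -0.28 to 0.32 in FGFR1 KO and from -0.09 to 2.78 in WT. H2-DMb2, well above background on 2 FGFR1 KO arrays and 1 WT array, ranged from -0.22 to 0.38 in FGFR1 KO and from -0.14 to 2.24 in WT. In both, WT 1 was the highest array. Bounds of this kind set the bright group's mean over all its arrays against the lowest signal above background on the other group's arrays. That mean includes arrays not well above background, so the ratio is no strict lower limit. It is also open to dye bias, as no dyes were swapped.

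Ciita, the class II transactivator, read 0.21, 0.08, 0.10 and -0.03 in FGFR1 KO 1 to 4, against 0.18, 0.11, -0.08 and 0.09 in WT 1 to 4. All 8 values lay within a narrow band, also on WT 1, where its targets were high. The difference was 0.01 ± 0.13 (SE) with a 95% confidence interval from -0.28 to 0.31. The red level was 13.61 in FGFR1 KO and 13.75 in WT tumours, close to green at 13.52 beside FGFR1 KO and 13.68 beside WT. Whether the probe reads Ciita RNA alone was not tested, so these flat values need not be those of Ciita. Its closest relation was with H2-Eb1, at a Pearson r of 0.64 (exact permutation p = 0.0915, n = 8) and a Spearman rho of 0.55 (exact permutation p = 0.171, n = 8), and r was 0.58 without WT 3 and FGFR1 KO 4, farthest from the Ciita median.

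**Figure D3:**
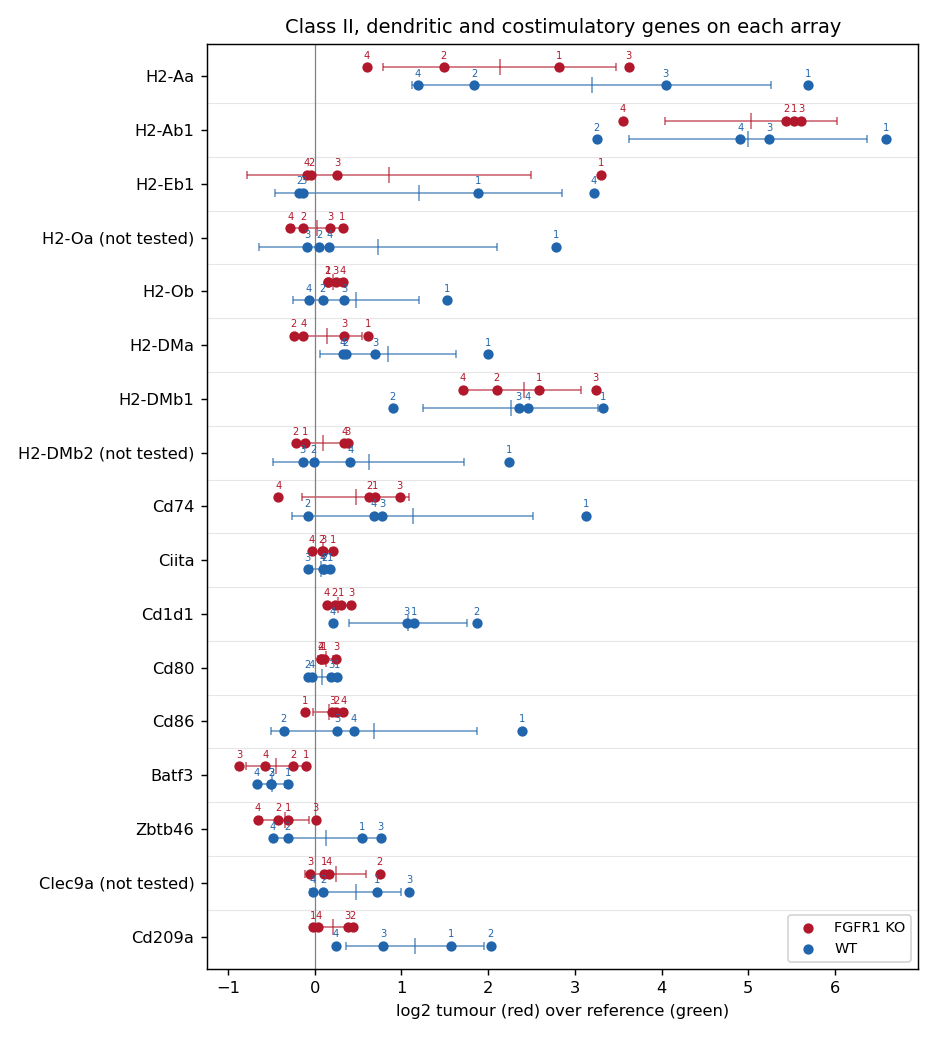
Log2 ratio of tumour (red) over reference (green) for the 10 class II genes and the 7 dendritic cell and costimulatory genes, with 1 point per array numbered by replicate, FGFR1 KO above WT in each row, and bars for the mean and SD of each group. WT 1 is the rightmost point in most class II rows, H2-Eb1 is high in FGFR1 KO 1, WT 1 and WT 4, and Ciita stays between -0.08 and 0.21.

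Dendritic cell and costimulatory genes had 4 of 6 tested members below 0, with a median difference of -0.49 and a range from -0.95 to 0.05, and 0 passed the adjusted test. The median by array was -0.06, 0.15, 0.22 and 0.05 for FGFR1 KO 1 to 4, against 0.85, -0.20, 0.51 and 0.09 for WT 1 to 4, and the median difference was -0.14 without WT 1.

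Cd209a, a C-type lectin of dendritic cells, read -0.02, 0.44, 0.38 and 0.04 in FGFR1 KO 1 to 4, against 1.57, 2.03, 0.79 and 0.24 in WT 1 to 4. Of the WT tumours, WT 4 lay within the FGFR1 KO range and the others above it, and the difference was -0.95 ± 0.36 (SE; limma's adjusted p = 0.539; exact two-sided permutation test, p = 0.0857). The spot lies in the bright area, and the Cd209a probe outside it was not well above background on any array. Cd1d1, which presents lipids to natural killer T cells, read 0.30, 0.23, 0.42 and 0.14 in FGFR1 KO 1 to 4, against 1.15, 1.87, 1.06 and 0.21 in WT 1 to 4. Its difference was -0.80 ± 0.31 (SE; limma's adjusted p = 0.54), with WT 4 again beside the FGFR1 KO tumours. The further Cd1d1 probe, also outside the area, differed by -0.80 ± 0.48 (SE).

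Zbtb46, a transcription factor of conventional dendritic cells, read -0.31, -0.42, 0.01 and -0.66 in FGFR1 KO 1 to 4, against 0.54, -0.31, 0.76 and -0.48 in WT 1 to 4. WT 1 and WT 3 were high and the other 6 arrays at or below 0.01, and the difference was -0.47 ± 0.30 (SE; limma's adjusted p = 0.688), or -0.26 without WT 3. Its probe in the bright area was not well above background on any FGFR1 KO array and was so on 1 of 4 WT arrays. It read -0.22, 0.19, -0.09 and 0.18 in FGFR1 KO 1 to 4, against 0.32, -0.21, 1.15 and 1.89 in WT 1 to 4. WT 2 lay within the FGFR1 KO range, and the WT mean red signal was 1.84-fold above the bound set for FGFR1 KO. Batf3, needed for cross-presenting dendritic cells, read -0.10, -0.25, -0.87 and -0.57 in FGFR1 KO 1 to 4, against -0.31, -0.50, -0.50 and -0.67 in WT 1 to 4, and differed by 0.05 ± 0.19 (SE). Clec9a, a marker of the same cells, was not tested, as its probe was well above background on 2 FGFR1 KO arrays and 0 WT arrays. It read 0.11, 0.75, -0.05 and 0.16 in FGFR1 KO 1 to 4, against 0.72, 0.10, 1.09 and -0.02 in WT 1 to 4.

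The costimulatory ligands gave no shared picture. Cd86, measured with A_55_P1971951, read -0.11, 0.25, 0.20 and 0.33 in FGFR1 KO 1 to 4, against 2.39, -0.36, 0.26 and 0.45 in WT 1 to 4. WT 1 alone stood out, and the difference was -0.52 ± 0.51 (SE). The other Cd86 probe, A_55_P2114834, read 0.05, 0.16, -0.03 and -0.31 in FGFR1 KO 1 to 4, against 1.49, 1.52, 0.98 and 1.51 in WT 1 to 4. It was not well above background on any FGFR1 KO array and was so on 2 of 4 WT arrays. Its WT mean red signal was 3.04-fold above the bound set for FGFR1 KO. Both Cd86 spots lie in the bright area, and they disagree on WT 2, WT 3 and WT 4. Cd80 averaged 0.12 ± 0.09 in FGFR1 KO and 0.08 ± 0.16 in WT, with 0.07 to 0.25 in FGFR1 KO and -0.08 to 0.26 in WT, and differed by 0.04 ± 0.14 (SE), and its further probe by 0.27 ± 0.20 (SE).

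Of the 61 spots of the 42 member probes, 19 lie in the bright area, and 10 of the representative probes have a spot there. H2-D1, Psmb10, Erap1, Calr, Canx, Cd86 and Clec9a were measured only inside it. Where a probe was printed on both sides, the spots could be compared directly. H2-K1 differed by -0.96 over 3 spots inside and by -0.95 over 7 outside. Tap1 differed by -0.56 over 3 printed inside, not all of them usable on every WT array, and by -0.53 over 7 outside. B2m differed by -1.16 at its spot inside and by -1.29 at its spot outside. Leaving out the area gave a median difference of -0.45 over 11 class I genes, -0.30 over 8 class II genes and -0.21 over 4 dendritic cell and costimulatory genes.

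**Figure D4:**
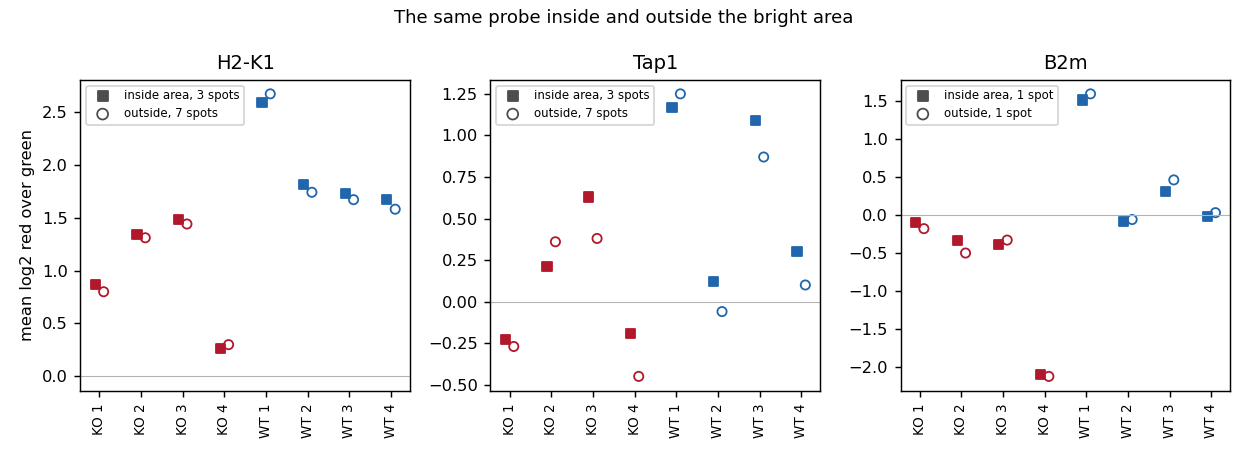
Mean log2 ratio of the same probe over its spots inside (filled squares) and outside (open circles) the bright area, for H2-K1, Tap1 and B2m on each of the 4 FGFR1 KO and 4 WT arrays. The inside and outside values of H2-K1 lie close together on every array. Those of Tap1 lie further apart on some, at -0.19 inside and -0.45 outside on FGFR1 KO 4. The differences were -0.96 and -0.95 for H2-K1, -0.56 and -0.53 for Tap1 and -1.16 and -1.29 for B2m.

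Other genes of the pathway were taken from a list of 67, of which 61 had a probe and 55 were tested. Of these, 32 were below 0 and 23 above, the median was -0.10, and 0 passed the adjusted test, while 4 were lower and 0 higher at an unadjusted p of 0.05, against 4.78% and 3.1% of all tested genes. The lower ones with the smallest p were the nonclassical class I gene H2-T10, at -0.78 ± 0.28 (SE), H2-K2, at -0.76 ± 0.28 (SE), and Lnpep, at -0.62 ± 0.24 (SE). H2-K2 is a class I relative beside H2-K1 with a non-coding RefSeq transcript, and Lnpep is an aminopeptidase of cross-presentation. The fourth was the class I gene H2-Q2 at -0.81 ± 0.32 (SE), named after its values were seen. The higher ones with the smallest p were H2-T24 at 0.32 ± 0.20, the translocon gene Sec61a1 at 0.76 ± 0.47 and Pdcd1lg2, a ligand of the PD-1 receptor, at 0.19 ± 0.12 (SE). Lnpep and H2-Q2 read lower, and Pdcd1lg2 higher, on every FGFR1 KO array than on any WT array, as did 2.5% and 1.85% of all tested genes. For Lnpep the mean red level was 8.25 in FGFR1 KO and 8.40 in WT, and green 9.87 and 9.40. For Pdcd1lg2 red was 8.03 and 8.07, and green 7.57 and 7.80. These ratios thus differed largely through the reference channel. For H2-Q2 red was 12.48 and 13.30, and green 11.43 and 11.44.

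Markers of the cells that a tumour piece can hold were read on the same arrays. All 5 pan-leukocyte markers were below 0, with list medians of -1.39 to -0.85 on the FGFR1 KO arrays and of 1.47 on WT 1 and -1.23 to -0.29 on the other WT arrays. All 6 tested B cell markers were below 0, with medians of -0.41 to -0.12 in FGFR1 KO, 2.20 on WT 1 and -0.23 to -0.07 on the other WT arrays. T cell markers, 6 of 8 below 0, had medians of -0.23 to -0.01 in FGFR1 KO, 1.00 on WT 1 and -0.21 to -0.05 on the other WT arrays. Leukocyte, B cell and T cell medians were thus highest on WT 1, the array that was highest in 18 members. The 10 tested of 13 dendritic cell markers, 7 of them below 0, had medians of 0.01 to 0.35 in FGFR1 KO and of 0.03 to 1.12 in WT, also highest on WT 1, and Ccl22 was not well above background on any array. Macrophage markers, 9 of 12 below 0, ran from 0.27 to 1.26 in FGFR1 KO and from 0.57 to 1.67 in WT, and natural killer cell markers, 2 of 3 below 0, from -0.21 to 0.01 in FGFR1 KO and from 0.00 to 0.40 in WT.

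Markers of other tissue were read on the same arrays, and not all of their medians were highest on WT 1. Adipocyte medians were 0.21 to 0.78 in FGFR1 KO, 4.33 on WT 1, 5.19 on WT 2 and 0.44 and 0.70 on the other WT arrays, and muscle medians -0.33 to 0.42 in FGFR1 KO, 8.30 on WT 2, 2.99 on WT 1 and near 0 on the other WT arrays. Fibroblast markers, 5 of 5 below 0, ran from -2.78 (FGFR1 KO 4) to -0.72 in FGFR1 KO and from -1.07 to 0.44 in WT. Endothelial markers, 4 of 4 below 0, ran from 0.30 to 0.61 in FGFR1 KO and from 0.54 to 0.96 in WT, and basal epithelial markers, 2 of 4 below 0, from 0.39 to 1.19 in FGFR1 KO and from -0.63 to 1.33 in WT. The part of these cell types in the differences of the antigen presentation genes was not tested.

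**Figure D5:**
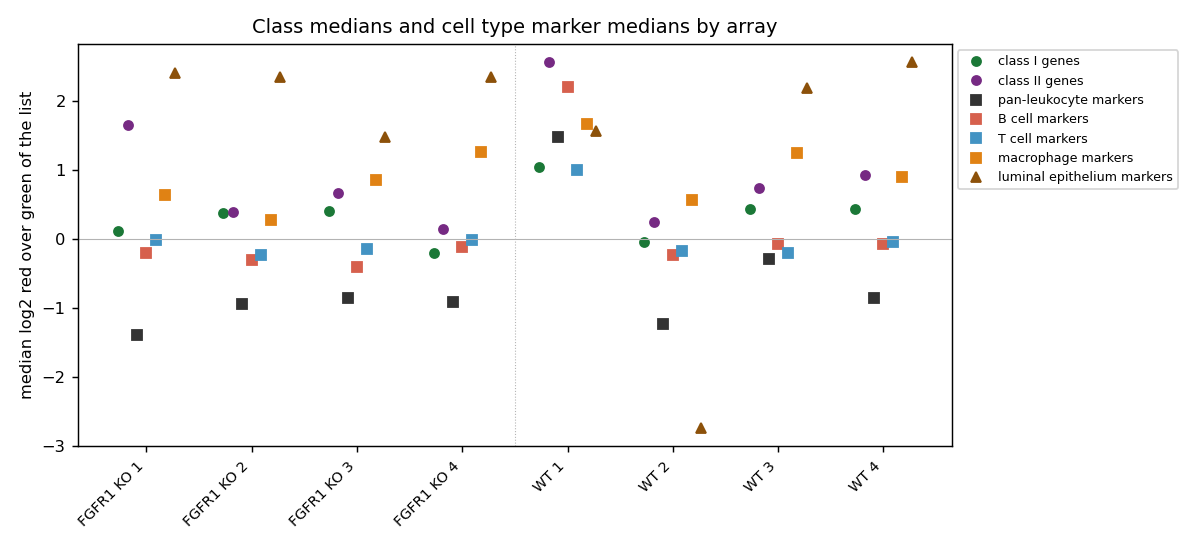
Median log2 ratio of tumour (red) over reference (green) on each array, FGFR1 KO left and WT right, for the tested class I and class II genes (circles), for 4 lists of immune cell markers (squares) and for luminal epithelial markers (triangles). WT 1 is highest in both classes and in all 4 immune lists, with the B cell median at 2.20, and WT 2 is lowest in luminal markers at -2.74.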

How the data were processed

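Gene expression was measured in 8 mouse mammary tumour samples, 1 2-colour Agilent array each, grouped by the genotype in the labels. Scans were quantified in Agilent Feature Extraction 11.0.1.1 on probes designed for mm9, per the file headers. The deposited median signals are uncorrected spot intensities, and the deposited processed signals are intensities after background subtraction and dye normalization within the array, per the file headers. The deposited log10 ratios are red over green processed signal, per the file headers. The deposited series matrix was found to hold log2 ratios, which correlated at 0.985 to 0.991 with the values used here, in the same direction. Its columns FGFR1 KO 1 to 4 had medians of 0.0152, -0.0155, -0.00112 and 0.00458, and its columns WT 1 to 4 had -0.00481, -0.00181, -0.00562 and 0.00171. Its normalization and centring stay unknown. Flags, control types and spot positions were used as deposited.

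Green was taken as the reference from the labelling protocol, and its median SD within groups was lower than that of red (0.165 against 0.269 in FGFR1 KO, 0.189 against 0.367 in WT). In R 4.3.3 with limma 3.58.1, median signals were corrected by normexp with an offset of 50 and normalized by loess within arrays, with control and outlier spots at weight 0, and spots of a probe were averaged. A probe was tested when its red signal was well above background on 4 or more arrays and each group had 3 or more values; it could pass through 1 group alone. Groups were compared by lmFit and eBayes without covariates, two-sided, adjusted by Benjamini-Hochberg over 39782 probes at a threshold of 0.05. Accessions were named through a RefSeq gene table of GRCm38.p6, used for names only, which named 28331 of 55681 probes. A gene is represented by its tested probe with the highest mean red level. The test was checked first on simulated arrays. The members, gene lists and tests were chosen with earlier results of these data known.

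All members are named. Values on every array are given for 14 members fixed by name, for the 3 of each class with the smallest p and for those whose groups did not overlap; of the further pathway list, up to 3 genes with the smallest p in each direction are named. The alternatives were other background corrections, normalizations, filters, probe summaries and eBayes settings, array weights, the replicate block, red alone, and arrays or the bright area left out.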

Additional observations from a re-analysis of the deposited data

Results flagged for a closer look

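In 4 of 60 groups of 4 values, 30 members in both genotypes, 1 tumour lay far from the other 3 by Dixon's criterion, which chance meets in about 1 in 20 groups. B2m, the class I light chain, read -2.11 in FGFR1 KO 4, against -0.42 to -0.14 in the other FGFR1 KO tumours. H2-Ab1, the class II beta chain, read 3.55 in the same tumour, against 5.44 to 5.61 in the others of its group. H2-Eb1 read 3.30 in FGFR1 KO 1, against -0.09 to 0.26 in FGFR1 KO 2 to 4. Pdia3, the disulfide isomerase of the loading complex, read -2.10 in WT 2, against -0.33 to -0.10 in the other WT tumours.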

How the results depend on the processing

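Of 618 differences of single members over 21 alternative settings, 576 kept their sign, 42 turned it, and 0 passed the adjusted threshold, at which 0 members stood in every setting run. Over all probes, the 4 that passed were 0 with Agilent's log ratio, scale normalization, red alone, the filter of all 8 arrays, the mean of a gene's probes, the bright area left out, trend and robust eBayes, and WT 1 and WT 2 left out, 11 with array weights, 139 with no filter, and 0 to 1 with 1 array left out. With the replicate block, which here is the slide column, 0 probes and 0 members passed; same-numbered arrays correlated at -0.106 to 0.109 in their deviations, with 2 of 4 closest to their own number, so the numbers were not taken to pair the tumours. With 1 array left out, the median difference ran from -0.65 to -0.17 in class I, from -0.67 to 0.03 in class II (0.03 without WT 1) and from -0.64 to -0.14 in dendritic cell and costimulatory genes, which read -0.20 with red alone. Without WT 1 and WT 2 the medians were -0.27, -0.15 and -0.25. Members whose groups did not overlap, 1 at first, were 2 with the mean of a gene's probes and without WT 1 and WT 2, and 1 to 6 with 1 array left out, 6 without WT 4. Members below 0 were 15 to 27 of those tested. Members lower at an unadjusted p of 0.05, 4 at first, were 2 with Agilent's log ratio, 1 with red alone and 0 without WT 1 and WT 2, and with 1 array left out 0 to 7, among them 1 without FGFR1 KO 1, 2 without FGFR1 KO 2 or WT 3, 0 without FGFR1 KO 4 or WT 1 and 7 without WT 4. The shares of all tested genes in these settings are not given here, so these counts of members were not read against them. Groups also separate more readily when an array is left out.

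The members whose sign turned include Cd74, Cd86 and Pdia3, and the cause was not tested. With Agilent's log ratio, Canx was at 0.03, H2-Ab1 at -0.18 and Ciita at -0.01; with scale normalization, Batf3 at -0.01; with red alone, Canx at 0.00, H2-Ab1 at -0.25, H2-DMb1 at -0.06 and Cd86 at 0.22; with the mean of probes, H2-Ab1 at -0.07. With array weights, Tapbp was at -0.01, Psmb10 at -0.03, H2-Ab1 at -0.20 and Batf3 at -0.03. Without WT 1 and WT 2, Tapbp was at -0.06, Calr at -0.03, Pdia3 at -0.16, H2-Ab1 at -0.04 and H2-Ob at 0.08. With 1 array left out, the ranges that crossed 0 were -0.09 to 0.30 for Tap2, -0.17 to 0.26 for Tapbp, -0.06 to 0.14 for Psmb10, -0.10 to 0.57 for Pdia3, -0.54 to 0.57 for H2-Ab1, -1.15 to 0.34 for H2-Eb1, -0.44 to 0.09 for H2-Ob, -0.30 to 0.50 for H2-DMb1, -1.06 to 0.01 for Cd74, -0.04 to 0.05 for Ciita, -0.02 to 0.10 for Cd80, -0.87 to 0.05 for Cd86 and -0.07 to 0.19 for Batf3. The median over all tested probes was 0.116 with Agilent's log ratio and 0.117 with red alone, against 0.016 in the values reported. Dim probes set a limit, since Erap1, H2-M3, Cd86, Batf3 and Cd209a were well above background on at most 2 WT arrays.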

Other observations

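H2-Eb1 and the chains H2-Aa and H2-Ab1, which lie in the same gene cluster, followed different orders over the tumours. WT 4 read 3.22 for H2-Eb1 and 1.19 for H2-Aa, while FGFR1 KO 3 read 0.26 for H2-Eb1 and 3.62 for H2-Aa. Irf1, a factor of the interferon response, read 0.65, 0.28, 0.22 and -0.01 in FGFR1 KO 1 to 4, against 1.37, 0.12, 0.59 and 0.49 in WT 1 to 4, and did not pass (limma, adjusted p = 0.724). Its highest value was on WT 1 and its lowest on FGFR1 KO 4, as for B2m. Both Irf1 and these orders were chosen after their values were seen.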
